A study of Mus musculus with 11 samples.

Results

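The genes described here are 37 glutamate signalling genes in neurons sorted from newborn mouse thalamus: the subunits of the AMPA, kainate, NMDA and delta-1 glutamate receptors, metabotropic glutamate receptors Grm2 to Grm8, the kainate receptor auxiliary subunits Neto1 and Neto2, the Homer, Shank and Dlg scaffolds, and the vesicular glutamate transporters. They were chosen by gene symbol, with earlier results of these data known, and found through the Ensembl identifiers of the count tables. All 37 were among the 54752 genes listed, and 35 were among the 15907 genes with enough counts to be tested. The other members were Grm6, which had 0 counts in every library, and Grin3b, whose highest count was 5.

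The study asked whether astrocytes share gene expression with the neurons of their own brain region, and the libraries here are its thalamic neurons, taken from a set of sensory nuclei at birth. Vision is relayed by the dorsolateral geniculate nucleus (dLG), facial touch by the ventral posteromedial nucleus (VPM) and hearing by the ventral medial geniculate nucleus (MGv). RNA was sequenced in 4 dLG libraries, 4 VPM libraries and 3 MGv libraries, each from 4 pooled brains taken on postnatal day 0. In all 3 groups the mice were ICR/CD-1 animals of the genotype Gbx2CreER-IRES-EGFP/+::R26lsl-tdTomato/+, in which a tamoxifen-inducible Cre recombinase made from the Gbx2 locus turns on red tdTomato fluorescence in thalamic neurons early in development. Cre was induced with tamoxifen in the embryos, cells were sorted by the red fluorescence, and all groups alike carried the insertion in 1 copy of Gbx2. Tissue was dissociated in a medium with kynurenic acid and APV, which block ionotropic glutamate receptors, and the effect of that medium on the values was not tested.

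Glutamate is the transmitter of relay neurons and of most of their inputs. AMPA receptors carry fast current, NMDA receptors pass calcium once the cell is depolarised, kainate receptors modulate release and excitability, and metabotropic receptors act through G proteins, while scaffold proteins hold receptors at the synapse and vesicular transporters load glutamate into vesicles. In the developing brain GluN2B and GluN3A are known as early NMDA receptor subunits and GluN2A as a later one, and VGLUT2 (Slc17a6) is known as the main vesicular transporter of thalamic neurons.

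Total counts were between 10175653 and 23559130 per library, and the 3 MGv libraries were the shallowest. Levels of a gene are given in CPM (counts scaled to a common library total by TMM), and levels of different genes are compared only per kilobase of exon (RPKM). The smallest amount taken as detectable, 3 counts, was between 0.129 and 0.292 CPM, a floor that covers counting error only. Libraries are named by nucleus and replicate number, and values listed for a nucleus follow these numbers. Differences were tested with the quasi-likelihood test of edgeR across all tested genes, and a gene was called at a Benjamini-Hochberg adjusted p under 0.1. Since each library held many cells, fewer cells expressing a gene and less RNA per cell cannot be told apart. The libraries are labelled as separate samples, and the p-values measure the spread between them.

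Libraries dLG 2, VPM 3 and MGv 1 stood apart by very low Hspa8, a heat shock protein gene: 3.05, 4.09 and 5.56 CPM against 159 to 581 CPM in the other 8. VPM 3 was the lowest VPM library for 29 of the 35 tested members, whereas it was the lowest for 41.8% of all tested genes. In dLG 2 the same held for 15 members, against 28.9% of all genes, and in MGv 1 for 13, against 30.9%. Libraries without low Hspa8 came close to these: dLG 3 was lowest for 12 members (28.9% of all genes) and MGv 2 for 13 (31%). All 6 neuronal markers were above the floor in every library, with summed levels of 8425 to 11123 CPM, as were all 6 thalamic markers (1538 to 2949 CPM). Summed markers of GABAergic neurons stayed at or below 4.89 CPM, and those of microglia at or below 13.2 CPM. Summed blood markers reached 512 CPM in dLG 3, mostly from the globin gene Hbb-bs, and were at most 11.7 CPM in any other library. Of the genes known to respond to tissue dissociation, the immediate early genes Fos and Fosb were lowest in VPM, with Fos at 65.3 to 100 CPM against 165 to 326 CPM in the other nuclei and Fosb at 1.48 to 4.16 CPM against 7.43 to 56.6 CPM. Junb and Egr1 were also lowest in VPM, while Jun, Ier2, Atf3, Hspa1a and Hspa1b in VPM overlapped the other nuclei. The sum over the 10 dissociation genes was 275 to 656 CPM in VPM, 563 to 1007 CPM in dLG and 623 to 954 CPM in MGv. This sum includes Hspa8, which ran from 3.05 to 581 CPM over the libraries. The part of the dissociation genes in the member differences that set VPM apart (among them Homer2, Neto1 and Slc17a7) was not tested. Gbx2, whose locus drives the Cre, was at 272 to 333 CPM in MGv whereas no dLG or VPM library was outside 14.2 to 51.6 CPM.

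Of the 35 tested members, 17 (48.6%) were called in at least 1 pairwise comparison, against 28.3% of all tested genes. Between dLG and VPM 7 were called (20%), against 10.7% of all tested genes. Gria1 and Grm8 were higher in dLG, where 4.97% of all genes were called, and Grik2, Grin3a, Homer2, Neto1 and Slc17a7 were higher in VPM, against 5.74% of all genes. Between dLG and MGv 15 members were called (42.9%, against 16.1% of all genes). Of these, 10 were higher in dLG (8.61% of all genes): Gria1, Gria2, Gria3, Grik4, Grid1, Grm8, Homer2, Homer3, Dlg4 and Slc17a6. The 5 that were higher in MGv (7.49% of all genes) were Grik2, Grin3a, Grm2, Grm3 and Slc17a8. Between VPM and MGv 11 members were called (31.4%, against 19% of all genes). There 9 were higher in VPM (10.4% of all genes), namely Gria1, Gria2, Gria3, Grik4, Homer2, Homer3, Neto1, Slc17a6 and Slc17a7, and Grm2 and Grm3 were higher in MGv (8.56% of all genes). A joint test for any difference among the nuclei called 16 members (45.7%, against 24.2% of all genes). The median log2 fold change over the members was -0.01, 0.06 and 0.01 in the 3 comparisons, beside 0.00, 0.02 and 0.02 over all genes, and the median absolute log2 fold change was 0.35, 0.54 and 0.41, beside 0.27, 0.32 and 0.36. Slc17a7 passed the count filter through its VPM libraries alone, and without it 6, 15 and 10 of 34 members were called. Slc17a8, still among those 15, passed through VPM and MGv libraries and no dLG library. The 3 comparisons share libraries, since each nucleus enters a pair of them. Earlier results of these data were known when the members were chosen.

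**Figure D1:**
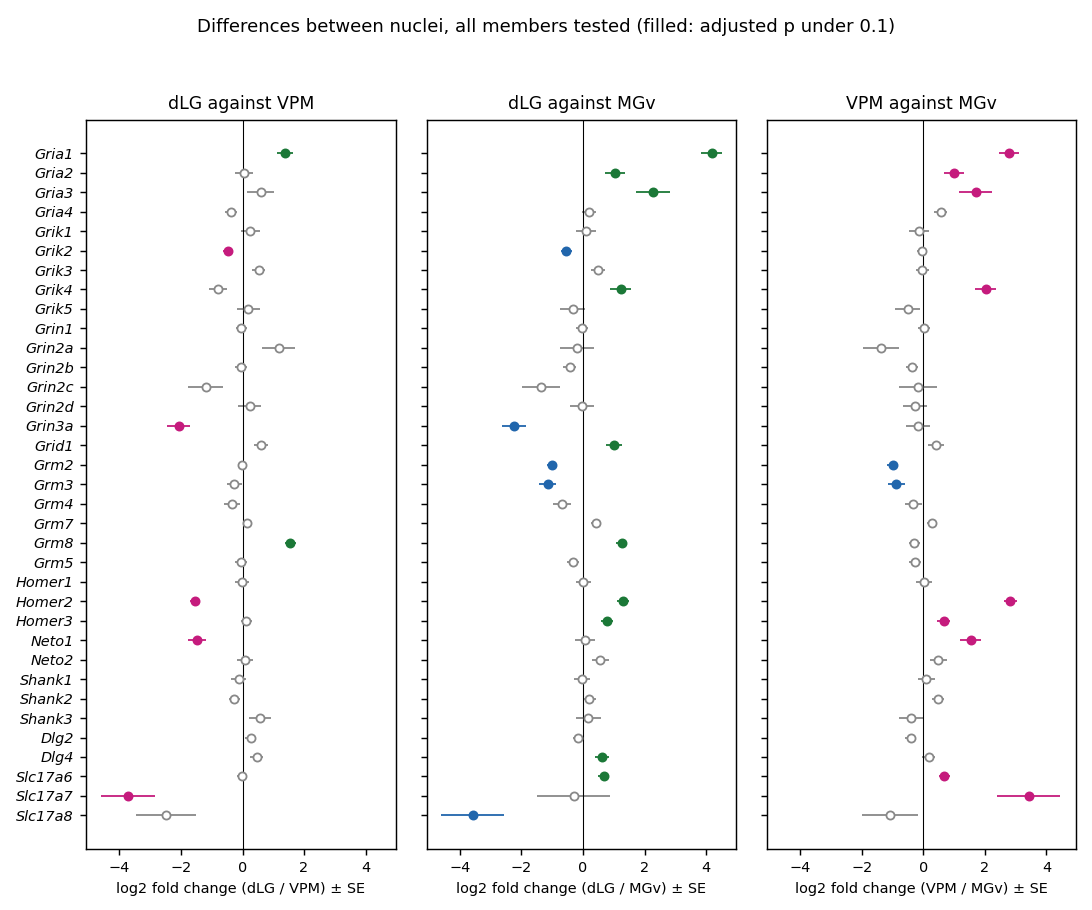
Log2 fold change with its standard error (horizontal axis) for each of the 35 tested members (vertical axis), with 1 panel per pair of nuclei. Filled points, coloured green for dLG, pink for VPM and blue for MGv by the nucleus with the higher level, have an adjusted p under 0.1 and number 7, 15 and 11 from left to right, and open grey points do not.

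Leaving out the 3 libraries with low Hspa8 together gave 11, 20, 12 and 21 called members in place of 7, 15, 11 and 16, while the share of all genes called was 16.1%, 19.8%, 19% and 28.3% in place of 10.7%, 16.1%, 19% and 24.2%. In that fit a single called difference was lost, that of Gria3 between VPM and MGv. Without VPM 3 alone the counts were 9, 18, 15 and 20, and no called difference was lost. Without MGv 1 alone the count for VPM against MGv was 7 in place of 11, and the 4 lost were Gria2, Gria3, Slc17a6 and Slc17a7.

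Levels per length spanned the members widely. Slc17a6 had the highest, at 99.5 RPKM in dLG, 100 in VPM and 62.5 in MGv, followed over all libraries by Gria2 (47.1 RPKM), Grm3 (22.1), Grm5 (19.0), Neto2 (12.3), Gria4 (11.8) and Grin3a (11.5). At the other end Slc17a7, Slc17a8, Grin2a, Shank3 and Grin2c averaged 0.102, 0.195, 0.0564, 0.208 and 0.352 RPKM. The length used changed these values: with the longest coding transcript in place of all exons, Grm8 went from 2.91 to 7.48 RPKM and Grin1 from 4.92 to 11.2 RPKM. The order below Slc17a6 and Gria2 changed as well, to Grm5 (24.2 RPKM), Grm3 (22.1), Grik1 (20.1), Grin3a (18.8), Grm7 (14.9), Gria4 (13.7) and Neto2 (13.4).

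**Figure D2:**
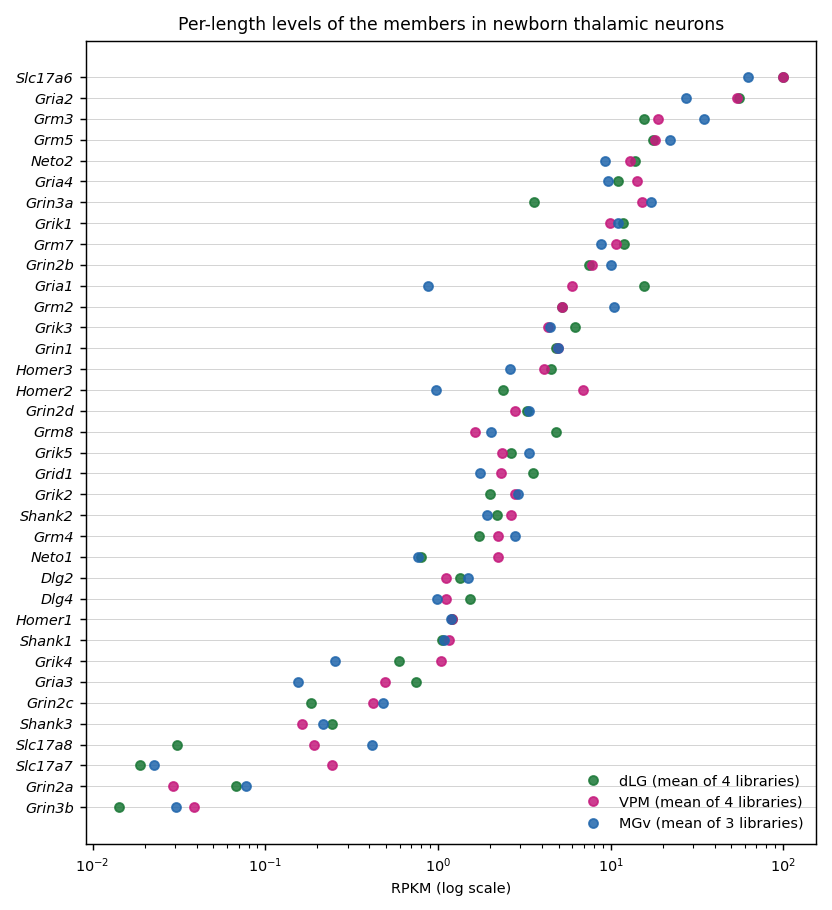
Mean level in RPKM (horizontal log axis) of the 36 members with any count, ordered by their mean over all libraries, in dLG (green, 4 libraries), VPM (pink, 4 libraries) and MGv (blue, 3 libraries). The members run from Slc17a6 near 100 RPKM down to Grin3b under 0.05, and Gria1, Homer2 and Grin3a show wide gaps between nuclei.

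Among the AMPA receptor subunits, which form the channel for fast transmission, Gria1 (GluA1) separated all 3 nuclei. Its level was 103, 68.7, 107 and 101 CPM in dLG, 40.0, 39.9, 30.2 and 35.2 CPM in VPM, and 2.7, 4.3 and 8.94 CPM in MGv. No library of one nucleus reached the range of another, and the order was dLG, VPM, MGv. In dLG Gria1 exceeded the VPM level by 1.39 ± 0.26 on the log2 scale (SE here and below, adjusted p = 0.00424) and the MGv level by 4.18 ± 0.34 (18.1-fold, adjusted p = 5.25e-06). VPM exceeded MGv by 2.79 ± 0.32 (6.93-fold, adjusted p = 6.7e-05). The 3 differences kept their call in all 21 alternatives run. The gene lies on chromosome 11 at 57011387 to 57330244 (plus strand, GRCm38), and none of its exonic bases is shared with another annotated gene.

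Gria2 (GluA2), the subunit that makes AMPA receptors largely impermeable to calcium, was the most abundant of the 4. It was at 946, 496, 841 and 1168 CPM in dLG, 926, 903, 391 and 1122 CPM in VPM, and 377, 545 and 346 CPM in MGv. The low-Hspa8 libraries dLG 2 and VPM 3 fell within the MGv range, and all other dLG and VPM libraries lay above it. Gria2 was higher than in MGv by 1.03 ± 0.33 in dLG (adjusted p = 0.0592) and by 0.98 ± 0.33 in VPM (adjusted p = 0.0655), and dLG and VPM differed by 0.05 ± 0.30 (adjusted p = 0.958). The call against dLG was lost when dLG 1, dLG 3, dLG 4, MGv 1 or MGv 3 was left out (adjusted p from 0.101 to 0.214), and that against VPM when VPM 1, VPM 2, VPM 4, MGv 1 or MGv 3 was left out (0.112 to 0.211).

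Gria3 (GluA3) was the lowest of the 4 subunits. It was at 9.98, 4.3, 7.3 and 7.68 CPM in dLG, 5.98, 4.28, 4.28 and 4.85 CPM in VPM, and 0.826, 0.351 and 3.4 CPM in MGv. MGv 1 and MGv 2, with 11 and 4 counts, were far below the rest, MGv 3 with 35 counts came close to the VPM range, and no MGv library overlapped the other nuclei. The difference was 2.28 ± 0.55 for dLG against MGv (adjusted p = 0.0139) and 1.70 ± 0.54 for VPM against MGv (adjusted p = 0.0561), and the latter call was lost without VPM 1, MGv 1 or MGv 2 (log2 fold changes of 1.6, 1.39 and 1.23, adjusted p = 0.105, 0.18 and 0.143). Without MGv 3 the differences were larger, at 3.59 for dLG (adjusted p = 0.000609) and 3.01 for VPM (adjusted p = 0.00178). Gria4 (GluA4) was at 69.6 ± 11.2, 89.5 ± 22.4 and 60.8 ± 13.7 CPM in dLG, VPM and MGv (SD, n = 4, 4 and 3) and was not called, with log2 fold changes of -0.36, 0.20 and 0.56 and adjusted p of 0.334, 0.647 and 0.11.

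By share of the AMPA subunit RNA, Gria1 made up 19.4% ± 2.6 of the summed RPKM of the 4 subunits in dLG and 8.72% ± 2.71 in VPM (SD, n = 4 each), and it was between 1.38% and 4.1% in the 3 MGv libraries. Gria2 was the largest part in every library, with 60.1% to 78.0%. These shares are a description over the members and were not tested. A share of RNA does not give the subunit makeup of receptors.

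**Figure D3:**
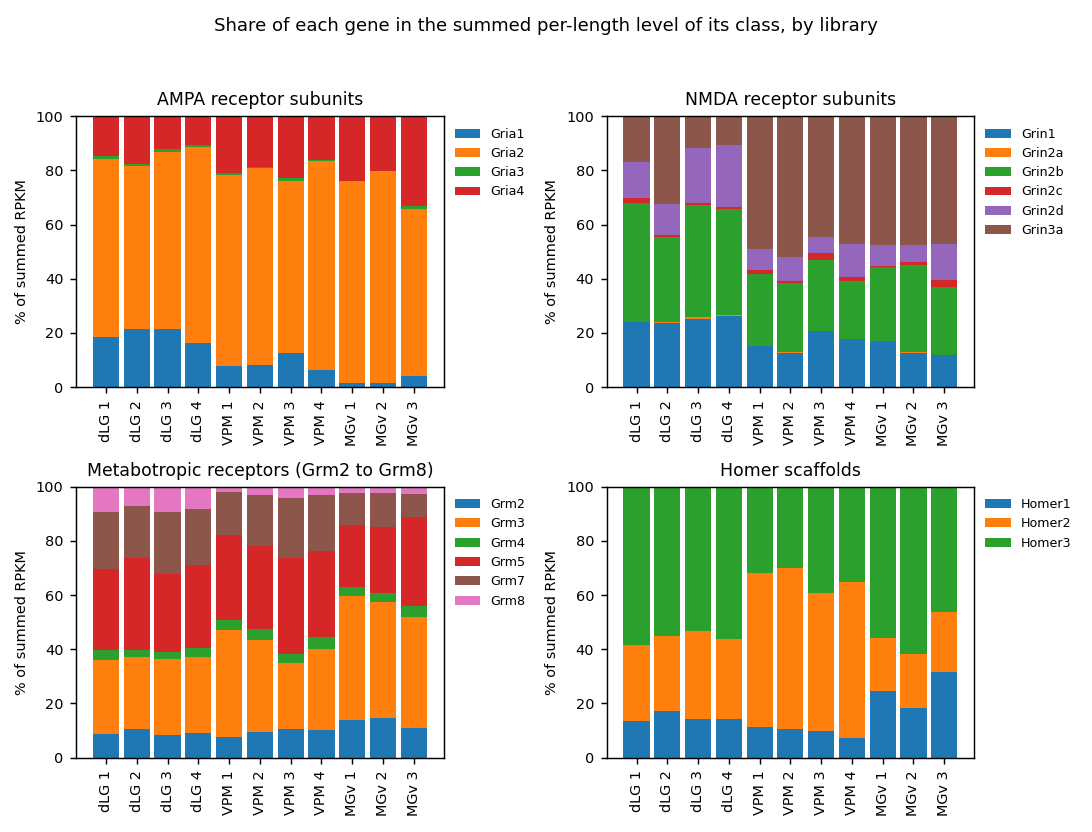
Stacked bars show the percentage (vertical axis, 0 to 100%) that each gene contributes to the summed RPKM of AMPA receptor subunits, NMDA receptor subunits, metabotropic receptors and Homer scaffolds in each of the 11 libraries (horizontal axis). Gria1 shrinks from dLG to VPM to MGv, Grin3a is the largest NMDA part in all VPM and MGv libraries, and Homer2 is the largest Homer part in VPM alone. Genes under 0.5% in every library are left out of the bars.

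Of the kainate receptor subunits, Grik2 and Grik4 were called. Grik4 (GluK4), a high-affinity subunit that works together with GluK1 to GluK3, was at 3.11, 4.86, 2.45 and 3.87 CPM in dLG, 6.58, 5.93, 5.71 and 6.56 CPM in VPM, and 2.1, 0.965 and 1.46 CPM in MGv. The 3 nuclei did not overlap, with VPM highest and MGv lowest. Grik4 was higher than in MGv by 2.02 ± 0.34 in VPM (adjusted p = 0.00164) and by 1.23 ± 0.34 in dLG (adjusted p = 0.0299, and 0.119 without MGv 2), while the difference of -0.79 ± 0.29 between dLG and VPM was not called (adjusted p = 0.126).

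Grik2 (GluK2), a subunit that can form the channel on its own, was lower in dLG. It was at 25.3, 29.6, 28.2 and 23.3 CPM in dLG, 40.8, 42.9, 28.7 and 35.9 CPM in VPM, and 37.4, 37.8 and 40.5 CPM in MGv. Of the VPM libraries VPM 3 alone fell inside the dLG range, and the MGv libraries were all above it. The log2 fold change was -0.48 ± 0.15 against VPM (adjusted p = 0.075) and -0.54 ± 0.16 against MGv (adjusted p = 0.0481). These were among the least stable calls: each was lost when dLG 1 or dLG 4 was left out (adjusted p from 0.116 to 0.205), the VPM call also without dLG 3, VPM 1, VPM 2 or VPM 4 (0.109 to 0.225) and the MGv call also without MGv 2 or MGv 3 (0.102 and 0.144). On counts thinned to the smallest library they had adjusted p of 0.317 and 0.188.

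Grik1, Grik3 and Grik5 were not called. Grik1 (GluK1), the largest part of the kainate subunit RNA in every library at 32.9% to 62.9% of the summed RPKM, was at 79.5 ± 33.0 CPM in dLG, 66.5 ± 21.1 in VPM and 74.3 ± 11.9 in MGv (SD, n = 4, 4 and 3). Grik3 stood at 56.1 ± 6.84, 38.9 ± 8.29 and 39.9 ± 12.1 CPM, and its dLG and VPM libraries did not overlap, but its log2 fold change of 0.53 ± 0.20 had an adjusted p of 0.158. Grik5 varied between 6.59 and 22.6 CPM within dLG alone.

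Neto1 and Neto2 are transmembrane proteins that bind kainate receptors and alter their gating. Neto1, which also binds NMDA receptors, was at 20.7, 24.7, 10.9 and 18.1 CPM in VPM, against 6.7, 4.38, 7.57 and 8.07 CPM in dLG and 4.13, 6.14 and 9.04 CPM in MGv. Every VPM library, the low VPM 3 included, was above all libraries of the other nuclei, whose ranges overlapped. Neto1 was higher in VPM by 1.48 on the log2 scale against dLG (log2 fold change of dLG against VPM -1.48 ± 0.30, adjusted p = 0.00713) and by 1.54 ± 0.33 against MGv (adjusted p = 0.00798), and both calls held in all 21 alternatives. Neto2 was the more abundant of the pair in every library, between 80.8% and 97% of their summed RPKM, and was not called (84.5 ± 19.6, 79.9 ± 23.5 and 57.1 ± 22.8 CPM in dLG, VPM and MGv).

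Of the NMDA receptor subunits, Grin3a was called and the obligatory subunit was not. Grin3a (GluN3A), which lowers the calcium permeability and magnesium block of receptors that contain it and lies on chromosome 4 at 49661611 to 49845744 (minus strand), was at 39.4, 87.3, 21.7 and 27.5 CPM in dLG, 231, 222, 102 and 190 CPM in VPM, and 198, 195 and 234 CPM in MGv. The dLG libraries lay below all others. Of the low-Hspa8 libraries, dLG 2 was highest in dLG and VPM 3 lowest in VPM, so these came near each other, while MGv 1 lay between MGv 2 and MGv 3. The log2 fold change of dLG was -2.08 ± 0.37 against VPM (adjusted p = 0.00348) and -2.25 ± 0.39 against MGv (adjusted p = 0.00174), and VPM and MGv differed by -0.17 ± 0.39 (adjusted p = 0.818). Both calls held in all 21 alternatives, with log2 fold changes from -2.86 to -1.85 against VPM and from -2.88 to -2.02 against MGv.

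Grin1 (GluN1), which every NMDA receptor contains, was at 44.4, 51.3, 37.1 and 54.7 CPM in dLG, 56.6, 42.8, 37.4 and 56.4 CPM in VPM, and 56.2, 41.3 and 46.7 CPM in MGv. The nuclei overlapped throughout, with log2 fold changes of -0.04 ± 0.17, -0.04 ± 0.19 and 0.01 ± 0.19 (adjusted p = 0.93, 0.941 and 0.983). Of its exonic bases 13.5% are shared with the antisense gene Grin1os, which was at no more than 0.371 CPM. Grin2b (GluN2B) was at 209, 173, 154 and 206 CPM in dLG, 256, 220, 121 and 175 CPM in VPM, and 230, 267 and 253 CPM in MGv. Its MGv libraries were above all of dLG, but no comparison was called (log2 fold changes of -0.06 ± 0.19, -0.43 ± 0.21 and -0.37 ± 0.21, adjusted p = 0.918, 0.229 and 0.274).

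Grin2b was the largest of the GluN2 subunits in every library, with 61.0% to 80.7% of their summed RPKM, and Grin2d followed with 15.9% to 36.5%. Grin2a (GluN2A) was close to the limit of detection, with 3 to 32 counts per library, and made up at most 1.02%. Neither Grin2a, Grin2c nor Grin2d was called. Over all NMDA receptor subunits Grin3a made up 44.5% to 51.9% of the summed RPKM in the VPM and MGv libraries and 10.5% to 32.1% in those of dLG, where Grin2b was the largest part except in dLG 2. In dLG 2, one of the libraries with low Hspa8, Grin3a was at 32.1% and Grin2b at 31.4%. The order in dLG depended on the length used: by the longest coding transcript Grin1 was the largest part in every dLG library (35.0% to 40.8%) and Grin2b made up 21% to 31.2%, while Grin3a was still the largest part in every VPM and MGv library.

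Grid1 (GluD1), a delta receptor that binds cerebellins across the synapse, was at 21.2, 18.3, 22.3 and 22.7 CPM in dLG, 18.1, 15.1, 8.13 and 14.1 CPM in VPM, and 8.19, 11.0 and 12.2 CPM in MGv. All dLG libraries were above the others, and VPM and MGv overlapped. The difference of dLG from MGv was 1.02 ± 0.25 (adjusted p = 0.0175), and that from VPM, 0.61 ± 0.23, was not called (adjusted p = 0.138).

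Of the metabotropic receptors, Grm2, Grm3 and Grm8 were called. Grm2 and Grm3 (mGlu2 and mGlu3), the group II receptors that lower cyclic AMP, were both higher in MGv. Grm2 was at 48.6, 57.1 and 48.4 CPM in MGv, against 25.5, 29.2, 22.2 and 25.6 CPM in dLG and 26.9, 30.0, 19.2 and 26.5 CPM in VPM. The MGv libraries were all above the rest, and dLG and VPM overlapped (log2 fold change 0.00 ± 0.16, adjusted p = 0.994). Grm2 had log2 fold changes of -1 ± 0.17 both for dLG against MGv (adjusted p = 0.00146) and for VPM against MGv (adjusted p = 0.00164), and these held in all 21 alternatives. Of its exonic bases 9.6% are shared with the antisense gene Gm28111, which was at no more than 0.263 CPM.

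Grm3 was at 101, 106 and 113 CPM in MGv, 50.7, 44.8, 45.9 and 50.5 CPM in dLG, and 87.3, 67.6, 27.5 and 48.4 CPM in VPM. The MGv libraries again did not overlap the others, and VPM spread widely with VPM 1 nearest to MGv and VPM 3 lowest of all. The log2 fold change was -1.15 ± 0.27 for dLG against MGv (adjusted p = 0.0119) and -0.88 ± 0.27 for VPM against MGv (adjusted p = 0.0454, and 0.136 without MGv 3). Grm3 made up 40.9% to 45.9% of the summed RPKM of Grm2 to Grm8 in MGv and 24.3% to 39.6% in the other libraries.

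Grm3 is also known in glial cells, so glial markers were set beside these values. Of 7 astrocyte markers, 4 were above the floor in every library. Their summed level was 57.0 to 140.0 CPM in dLG, 86.8 to 151 CPM in VPM and 76.2 to 192 CPM in MGv. Slc1a3 (the glutamate uptake carrier GLAST) stood out among them, at 81.7, 90.3 and 45.5 CPM in MGv and at most 17.9 CPM elsewhere. The other markers did not share this pattern. Fabp7 was at 29.3 to 122 CPM in dLG, 46.3 to 103 CPM in VPM and 12 to 76.9 CPM in MGv. Aldoc was at 2.1 to 11.8, 27.9 to 46.6 and 16.6 to 19.5 CPM, and Aldh1l1 at 0.426 to 5.18, 2.36 to 3.57 and 1.28 to 4.3 CPM. Gfap was below the floor in every library, Aqp4 was at most 1.58 CPM and Gja1 at most 1.43 CPM. Of 6 oligodendrocyte lineage markers, 3 were above the floor in every library, and their sum was 74.9 to 85.9 CPM in MGv against 12.5 to 30.2 CPM in dLG and 32.7 to 43.4 CPM in VPM, mostly from Mbp. Sox10 was below the floor in every library and Olig2 at most 0.389 CPM. The part of glial RNA in the Grm2 and Grm3 values was not tested.

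Grm8 (mGlu8), a group III receptor that also lowers cyclic AMP and is often found on axon terminals, was higher in dLG. It was at 55.8, 38.8, 50.3 and 47.0 CPM in dLG, 13.3, 19.0, 15.8 and 17.1 CPM in VPM, and 18.6, 18.6 and 23.1 CPM in MGv. All dLG libraries were above the others, and VPM and MGv overlapped. In dLG Grm8 exceeded the VPM level by 1.56 ± 0.17 (2.94-fold, adjusted p = 5.26e-05) and the MGv level by 1.25 ± 0.18 (2.38-fold, adjusted p = 0.000456), and VPM and MGv differed by -0.30 ± 0.18 (adjusted p = 0.296). It made up 8.49% ± 1.13 of the summed RPKM of Grm2 to Grm8 in dLG (SD, n = 4) and 1.87% to 4.32% in the other libraries. By the longest coding transcript these shares were 16.6% ± 2 and 4.02% to 8.74%.

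The other group III receptors Grm4 and Grm7, and the group I receptor Grm5 (mGlu5), which releases calcium from stores, were not called. Grm5 was at 180 ± 14.9, 186 ± 42.5 and 225 ± 69.1 CPM in dLG, VPM and MGv (SD, n = 4, 4 and 3). Grm7 was at 70.2 ± 5.14, 63.2 ± 10.9 and 52.0 ± 7.38 CPM, with log2 fold changes between 0.15 and 0.43, and Grm4 at 10.4 ± 2.54, 13.2 ± 3.97 and 16.7 ± 4.07 CPM, with log2 fold changes between -0.68 and -0.33. Grm6, known as the receptor of retinal ON bipolar cells, was not detected: 0 counts in the deepest library allow a level of up to 0.13 CPM.

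**Figure D4:**
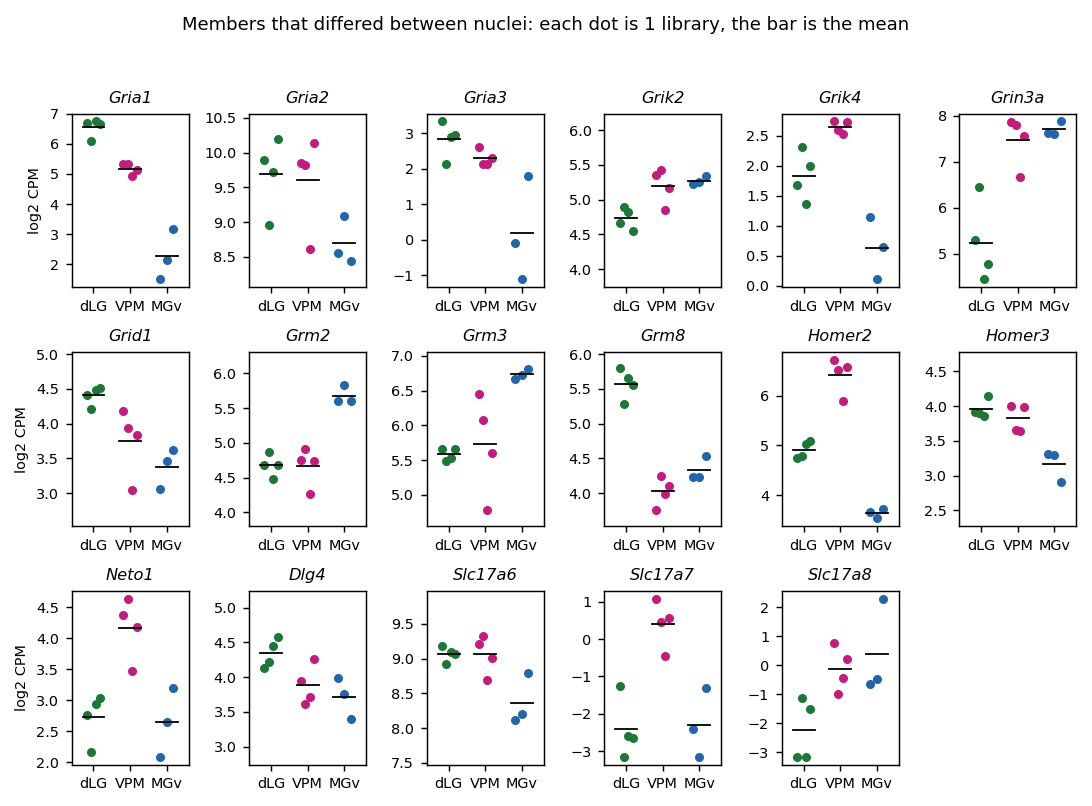
Log2 CPM (vertical axis, scaled per panel) of the 17 members called in at least 1 pairwise comparison, in dLG (green), VPM (pink) and MGv (blue). Each dot is 1 library in order of replicate number from left to right and the bar is the mean. Gria1 and Homer2 were called in all 3 comparisons, and Slc17a7 and Slc17a8 lie near or below 1 CPM in most libraries.

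The Homer genes, whose proteins link group I metabotropic receptors to Shank and to calcium stores, each had a pattern of its own. Homer2, on chromosome 7 at 81600481 to 81707527 (minus strand), was at 105, 91.0, 59.4 and 95.5 CPM in VPM, 26.6, 27.5, 32.5 and 33.8 CPM in dLG, and 12.5, 11.5 and 13.0 CPM in MGv. The 3 nuclei did not overlap, and even VPM 3 was above every dLG library. Homer2 had log2 fold changes of -1.54 ± 0.17 for dLG against VPM (adjusted p = 7.6e-05), 1.29 ± 0.20 for dLG against MGv (adjusted p = 0.000608) and 2.83 ± 0.20 for VPM against MGv (7.11-fold, adjusted p = 1.82e-06). All 3 held in all 21 alternatives, the last with values from 2.76 to 2.98. Homer2 made up 56.3% ± 3.7 of the summed Homer RPKM in VPM and 29.5% ± 2.3 in dLG (SD, n = 4 each), and 19.4% to 22.2% in MGv.

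Homer3 was lower in MGv, at 9.84, 9.74 and 7.39 CPM, than in dLG (15.0, 14.9, 14.3 and 17.6 CPM) and VPM (15.9, 12.5, 12.4 and 15.8 CPM). The MGv libraries lay below all others. The log2 fold change was 0.78 ± 0.20 for dLG against MGv (adjusted p = 0.0181) and 0.65 ± 0.20 for VPM against MGv (adjusted p = 0.0425, and 0.148 without MGv 3). Homer3 shares 25.4% of its exonic bases with Ddx49 on the other strand, and whether the counting used strand was not stated. Ddx49, at 24.8 to 57.0 CPM, was higher in MGv, with log2 fold changes of -0.65 (adjusted p = 0.024) and -0.73 (adjusted p = 0.0131) in the same comparisons, the direction opposite to Homer3. Homer1 was at 14.3 ± 1.97, 14.4 ± 3.93 and 14.2 ± 3.77 CPM in dLG, VPM and MGv (SD, n = 4, 4 and 3), and its log2 fold changes were -0.01 ± 0.23, 0.01 ± 0.25 and 0.02 ± 0.25. The identifier counts all Homer1 transcripts together, so the short activity-induced form and the long scaffold forms were not told apart.

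The promoters of the Homer genes and of a pair of transporter genes are shown because members of these families differed in their pattern among the nuclei: Homer2 and Slc17a7 were highest in VPM, Homer3 and Slc17a6 lowest in MGv, and Homer1 was called in no comparison. Each line is the 150 bases before the most upstream start annotated by RefSeq (build GRCm38.p6), written 5′ to 3′ on the strand of the gene, with capitals for the letters of a motif. The motifs searched on both strands were the GC box (GGGCGG or its reverse complement CCGCCC), the site of Sp factors, and the core of the cAMP response element (TGACG or CGTCA). Matches that overlapped were counted separately.
Homer1, chr13:93303607-93303756, plus strand: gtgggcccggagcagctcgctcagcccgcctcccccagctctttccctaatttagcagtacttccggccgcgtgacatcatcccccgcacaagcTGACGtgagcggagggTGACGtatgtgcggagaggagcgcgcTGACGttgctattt
Homer2, chr7:81706926-81707075, minus strand: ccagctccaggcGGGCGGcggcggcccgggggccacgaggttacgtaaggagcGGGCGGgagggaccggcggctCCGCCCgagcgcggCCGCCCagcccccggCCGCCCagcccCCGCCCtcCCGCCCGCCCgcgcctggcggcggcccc
Homer3, chr8:70282849-70282998, plus strand: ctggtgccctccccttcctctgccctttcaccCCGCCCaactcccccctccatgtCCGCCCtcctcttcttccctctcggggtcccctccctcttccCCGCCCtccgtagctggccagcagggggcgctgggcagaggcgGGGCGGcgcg
Slc17a6, chr7:51621680-51621829, plus strand: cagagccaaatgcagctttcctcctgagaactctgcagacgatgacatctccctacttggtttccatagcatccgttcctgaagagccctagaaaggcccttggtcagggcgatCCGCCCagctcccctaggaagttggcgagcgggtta
Slc17a7, chr7:45163771-45163920, plus strand: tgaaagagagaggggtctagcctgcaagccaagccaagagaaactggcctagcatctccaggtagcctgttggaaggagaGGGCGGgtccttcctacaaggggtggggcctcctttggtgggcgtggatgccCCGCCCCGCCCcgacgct

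Homer2 held 8 GC boxes, Homer3 4, Slc17a7 3 and Slc17a6 1, and Homer1 held none and 3 matches of the cAMP response element core, of which the others had none. Of all 32851 RefSeq windows of this length, 28.6% held at least 1 GC box and 13.3% at least 1 core, and the number per window was not compared with them. The share of G and C was 86.7% in Homer2, 73.3% in Homer3, 63.3% in Slc17a7, 62.7% in Homer1 and 56% in Slc17a6. Its part in the number of GC boxes was not tested. Windows were found for 25 of the 37 members, and Gria1, Gria3, Grik1, Grin2a, Grin2b, Grin3a, Grid1, Grm4, Grm5, Neto1, Shank1 and Shank2 are named only. A match is a description of the letters, and gene counts do not show which start the neurons used.

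Of the Dlg and Shank scaffolds of the postsynaptic density, Dlg4 alone was called. Dlg4 (PSD95), which anchors NMDA and AMPA receptors, was at 17.4, 18.4, 21.6 and 23.8 CPM in dLG, 15.2, 12.1, 13.0 and 19.1 CPM in VPM, and 15.8, 13.3 and 10.4 CPM in MGv. The dLG libraries were above MGv, by 0.62 ± 0.22 (adjusted p = 0.0872), and overlapped those of VPM through VPM 4. This call was close to the threshold and was lost without dLG 1, dLG 3, dLG 4, VPM 1, MGv 2 or MGv 3 (adjusted p from 0.102 to 0.29), and the joint test did not call Dlg4. Dlg2 (PSD93) was at 21.8 ± 2.11, 18.2 ± 1.02 and 24.2 ± 6.16 CPM in dLG, VPM and MGv and was not called. Of the Shank genes, which form the deeper layer of the density, Shank2 made up 57.4% to 68.2% of the summed RPKM and Shank3 at most 8.16%. None of the 3 was called, and their log2 fold changes lay between -0.40 and 0.57.

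Among the vesicular transporters Slc17a6 (VGLUT2) was at 582, 486, 548 and 534 CPM in dLG, 592, 642, 414 and 517 CPM in VPM, and 278, 293 and 441 CPM in MGv. It was lower in MGv 1 and MGv 2 than anywhere else, and MGv 3 lay between VPM 3 and the other VPM libraries. The log2 fold change was 0.67 ± 0.18 for dLG against MGv (adjusted p = 0.0281) and 0.68 ± 0.18 for VPM against MGv (adjusted p = 0.0256). Without MGv 1 neither was called (0.55 and 0.57, adjusted p = 0.128 and 0.111), and without MGv 2 the dLG comparison was not (0.58, adjusted p = 0.12). Slc17a6 made up at least 98.7% of the summed RPKM of the 3 transporters in every library.

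Slc17a7 (VGLUT1), the main transporter of cortical neurons, had few counts, so these are given. VPM libraries held 43, 29, 10 and 29 counts, dLG libraries 5, 0, 1 and 1, and MGv libraries 1, 0 and 3. It passed the count filter through VPM alone, the nucleus where it was high, so its calls and the counts that include it are a description. All VPM libraries were above the others, at 0.62 to 1.99 CPM against at most 0.304 CPM, and outside VPM dLG 1 and MGv 3 alone reached the floor of 3 counts. The adjusted p was 0.0198 for dLG against VPM and 0.0444 for VPM against MGv, the latter 0.144 without MGv 1 and 0.129 without MGv 2, and no fold is given since the fitted value depends on the prior count. Summed cortical neuron markers were at 0.654 to 1.96 CPM in dLG, 1.56 to 3.1 CPM in VPM and 1.14 to 5.15 CPM in MGv, and their part in the Slc17a7 counts was not tested.

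Slc17a8 (VGLUT3), found in scattered neurons that often use another transmitter as well, had 0, 8, 0 and 5 counts in dLG, 34, 9, 10 and 22 in VPM, and 7, 7 and 49 in MGv. Most of the MGv signal was in MGv 3, at 4.76 CPM against 0.526 and 0.614 CPM in MGv 1 and MGv 2. It was called as higher in MGv than in dLG (adjusted p = 0.0364), and the adjusted p was 0.379 without MGv 3. It passed the count filter through 3 VPM and 3 MGv libraries and no dLG library, so this call is a description.

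The genes that act with these receptors were counted from a list of 54, all of which were tested: auxiliary subunits, trafficking and anchoring proteins, other scaffolds and kinases, other receptors with their cerebellin ligands, and genes of glutamate uptake and the glutamine cycle. Between dLG and VPM 16 were called, 7 higher in dLG and 9 in VPM. Between dLG and MGv 26 were called, 10 higher in dLG and 16 in MGv, and between VPM and MGv 26, with 13 in each direction. The shares of 29.6%, 48.1% and 48.1% stand beside 10.7%, 16.1% and 19% of all genes. Earlier results of these data were known when this list was chosen.

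The AMPA and kainate receptor auxiliary subunits set the trafficking and the kinetics of the channels, and 4, 7 and 9 of 15 were called between dLG and VPM, dLG and MGv, and VPM and MGv, beside the shares of all genes just given. Cnih3, a cornichon that slows AMPA receptor closing, was at 37.9, 35.6, 29.6 and 31.2 CPM in VPM, 1.83, 2.41, 0.49 and 1.24 CPM in dLG, and 2.7, 5.62 and 10.8 CPM in MGv. No ranges overlapped. Its log2 fold change was -4.48 ± 0.44 for dLG against VPM (adjusted p = 3.23e-05), -2.07 ± 0.45 for dLG against MGv (adjusted p = 0.00779) and 2.41 ± 0.45 for VPM against MGv (adjusted p = 0.00287). Gsg1l, an auxiliary subunit that dampens AMPA receptor current, was at 66.6, 38.5, 53.0 and 67.5 CPM in dLG, 129, 90.5, 54.6 and 78.1 CPM in VPM, and 3.16, 3.07 and 9.72 CPM in MGv. It was low in every MGv library, by 3.43 ± 0.42 against dLG (adjusted p = 0.000119) and 4.07 ± 0.43 against VPM (adjusted p = 3.5e-05).

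Cacng3, Syndig1 and Cacng2 were picked with their values in view, as were the Camk2 genes, and Cacng3 and Syndig1 were high where Gsg1l was low. Cacng3 (gamma-3, a transmembrane AMPA receptor regulatory protein) was at 84.5, 75.6 and 81.2 CPM in MGv, 5.18, 26.5, 10.1 and 8.49 CPM in dLG, and 2.6, 7.36, 6.51 and 5.52 CPM in VPM. All MGv libraries were high, and dLG 2 was the nearest of the others. The log2 fold change was -2.67 ± 0.44 for dLG against MGv (adjusted p = 0.00115) and -3.87 ± 0.46 for VPM against MGv (adjusted p = 9.04e-05). Syndig1, whose protein binds AMPA receptors, was at 39.9 to 48.6 CPM in MGv and 10.2 to 20.1 CPM elsewhere. Cacng2 (stargazin) was at 48.0 to 54.3 CPM in dLG, 24.6 to 37.6 in VPM and 43.1 to 48.6 in MGv, and was lower in VPM (adjusted p = 0.0207 against dLG and 0.0518 against MGv).

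Cbln1, a secreted cerebellin that binds delta receptors, was at 29.4, 29.0, 33.1 and 17.7 CPM in VPM and between 1.91 and 3.29 CPM in all dLG and MGv libraries. Its log2 fold change was -3.31 ± 0.26 for dLG against VPM (adjusted p = 4.05e-06) and 3.41 ± 0.30 for VPM against MGv (adjusted p = 8.75e-06).

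**Figure D5:**
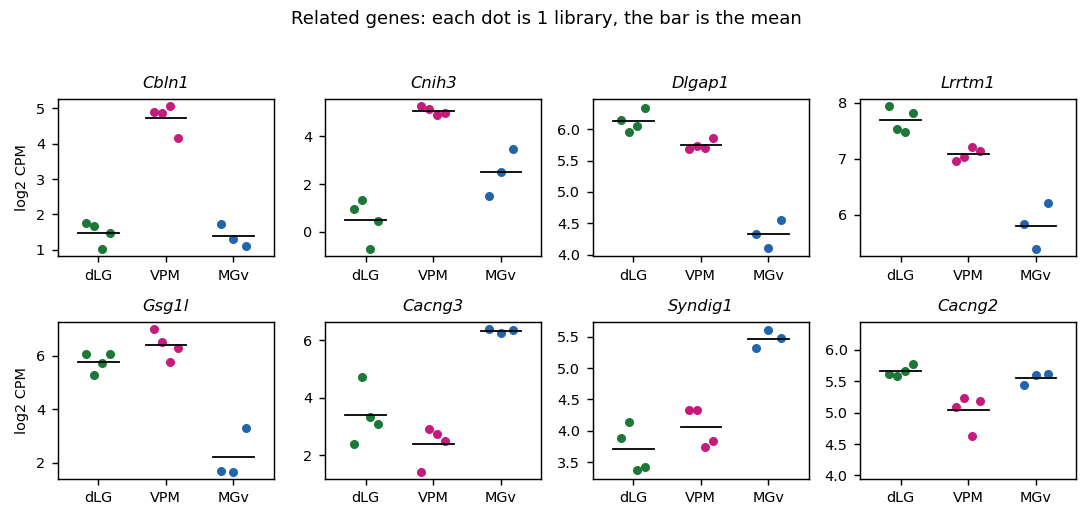
Log2 CPM (vertical axis, scaled per panel) of 8 genes that act with the receptors, in dLG (green), VPM (pink) and MGv (blue). Each dot is 1 library in order of replicate number and the bar is the mean. Cbln1 and Cnih3 are highest in VPM, Gsg1l, Dlgap1 and Lrrtm1 are lowest in MGv, Cacng3 and Syndig1 are highest in MGv, and Cacng2 is lowest in VPM.

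Of the 11 trafficking and anchoring genes 6 (54.5%) were called in at least 1 comparison, and of the 12 other scaffolds and kinases 8 (66.7%), against 28.3% of all genes. Lrrtm1, a postsynaptic adhesion protein that binds neurexins, was at 244, 184, 177 and 225 CPM in dLG, 124, 130, 148 and 141 CPM in VPM, and 57.1, 41.7 and 73.7 CPM in MGv. Its ranges did not overlap, with a difference of 1.85 ± 0.19 between dLG and MGv (adjusted p = 3.02e-05). Dlgap1, a scaffold that joins PSD95 to Shank, was at 70.4, 62.0, 66.0 and 81.0 CPM in dLG, 51.4, 52.9, 51.9 and 57.9 CPM in VPM, and 19.9, 17.1 and 23.4 CPM in MGv. MGv was lowest, by 1.79 ± 0.16 against dLG (adjusted p = 8.05e-06) and 1.41 ± 0.15 against VPM (adjusted p = 4.56e-05). The kinase genes Camk2a, Camk2b and Camk2d were higher in MGv than in both other nuclei, and Camk2a was also higher in dLG than in VPM (adjusted p = 0.00419). Camk2g ran the other way, higher in VPM than in MGv by 0.56 ± 0.19 (adjusted p = 0.0687), and dLG and MGv differed by 0.32 ± 0.19 (adjusted p = 0.335).

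Of the 10 uptake and glutamine cycle genes 6 (60%) were called in at least 1 comparison, against 28.3% of all genes, and between VPM and MGv the share was 20% against 19%. Slc1a3 was higher in MGv, as given above with the glial markers, and Slc1a1, the neuronal glutamate carrier EAAC1, was lower there, at 54.8 to 82.3 CPM against 98 to 141 CPM elsewhere (adjusted p = 0.00844 against dLG and 0.00296 against VPM). Slc1a1 shares 31.9% of its exonic bases with a gene on the other strand. Slc1a2, the carrier GLT-1, was not called.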

How the data were processed

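The authors trimmed the reads (Cutadapt 2.3 through Trim Galore 0.6.1), aligned them to GRCm38 with STAR 2.7.0d and counted them per Ensembl gene with featureCounts (Subread 1.6.4), as the labels and the methods state. What was deposited is 1 table of raw read counts per library, with libraries kept separate and each library made from 4 pooled brains. The use of strand and of reads with several alignments was not given in the sources used here. Libraries were made from total RNA with the SMARTer Ultra Low kit and read as 50-base single reads.

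Counts were tested with edgeR 4.0.16 (R 4.3.3): filterByExpr kept 15907 of 33170 genes with a count, TMM scaling, all 11 libraries in 1 model without covariate, quasi-likelihood tests, 2-sided, Benjamini-Hochberg adjustment over all genes tested and a threshold of 0.1. The SE is the absolute log2 fold change over the square root of F, and log2 CPM uses a prior count of 2. Symbols, positions and exon lengths came from GENCODE M21 (GRCm38).

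Groups came from the sample titles. The members, related genes, marker lists and tests were chosen with earlier results of these data known. Called members and 5 usual genes (Grin1, Grin2b, Gria2, Slc17a6 and Dlg4) are given in every library, and per comparison the 3 related genes with the smallest p are named, except that some related genes are not reported here. Alternatives were DESeq2 1.42.0, its size factors, a count minimum of 10 in every library or no filter, a replicate block, only the nuclei compared, a covariate for the 3 low-Hspa8 libraries or leaving them out, thinned counts, a threshold of 0.05 and each library left out. Gene length by the longest coding transcript was added after seeing the data.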

Additional observations from a re-analysis of the deposited data

Results flagged for a closer look

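Each member was examined in the 2 nuclei with 4 libraries for a library that lay far from the rest, by the gap to its nearest neighbour over the whole range (Dixon's test). Of 70 such groups 5 were flagged, and chance flags about 1 in 20. Gria1 was at 68.7 CPM in dLG 2, below the 101 to 107 CPM of the other dLG libraries. Grik3 was at 26.5 CPM in VPM 3, below the 42.3 to 43.8 CPM of the other VPM libraries, Grm4 at 7.38 CPM, below 14.4 to 16.1 CPM, and Shank2 at 21.1 CPM, below 30.2 to 32.4 CPM. Grin2c was at 1.21 CPM in VPM 2, below the 2.28 to 2.55 CPM of the others. Of the 5 flagged values 4 were in dLG 2 or VPM 3, which had Hspa8 at 3.05 and 4.09 CPM, and the relation between the low Hspa8 and these values was not tested.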

How the results depend on the processing

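The 33 called member differences kept their direction in every alternative in which they could be fitted, and 20 also kept their call in each of these. Among the 20, Slc17a7 between dLG and VPM could be fitted in 16 of the 21 alternatives and Gria3 between dLG and MGv in 20. In the rest they did not pass the count filter and were not tested. With DESeq2, with DESeq2 size factors and with a covariate for the low-Hspa8 libraries none was lost, and the called members per comparison (dLG with VPM, dLG with MGv, VPM with MGv) were 10, 17 and 14 with DESeq2, 7, 15 and 11 with its size factors and 9, 17 and 13 with the covariate. Over all genes DESeq2 called 14.9%, 19.6% and 23.6% and the covariate fit 15%, 20.7% and 24.9%, in place of 10.7%, 16.1% and 19%. Without the low-Hspa8 libraries 11 members were called between dLG and VPM in place of 7, and over all genes 2618 in place of 1704. Under the other 8 settings for which all genes were counted (not the threshold of 0.05 or single libraries left out) that count moved by less than 1.5 times. With 1 library left out at a time, the members called between VPM and MGv numbered 7 (without MGv 1) to 15 (without VPM 3), in place of 11.

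With the replicate block the counts were 6, 11 and 10, and 13 for any difference, and the calls of Grik2 (both), Gria2 (both), Dlg4 and Slc17a8 were lost. The sources used here do not say whether same-numbered libraries came from the same brains. The deviations of same-numbered libraries from their group means had a mean correlation of 0.0155 over 10 pairs (from -0.203 to 0.483). Libraries of different number had a mean of -0.00505 over 30 pairs (from -0.311 to 0.268). Of 11 libraries 4 correlated best with one of their own number. These values come from the data and not from the design, and they do not settle whether the libraries were paired. By the length of the longest coding transcript the share of Homer2 was 24.5% in dLG, 49.8% in VPM and 15.9% in MGv, in place of 29.5%, 56.3% and 20.5%, and it was the largest part in every VPM library under both lengths. That of Grik1 was 58.3% in VPM and 60.1% in MGv, that of Gria2 71.8% in dLG and that of Grin3a 51.4% in MGv. Depth limits Slc17a7, Slc17a8, Grin2a and Grin3b, which had at most 49 counts in any library.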
